A study of Homo sapiens with 18 samples.

Results

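Knockdown of KMT2C was set against knockdown of KMT2D within the SUIT2 cell line. The comparison took the 3 SUIT2 libraries labelled KMT2C siRNA1, siRNA2 and siRNA3 and the 2 labelled KMT2D siRNA1 and siRNA2, chosen by these labels, and so 5 of the 18 libraries of the series. The 1 SUIT2 library with control siRNA is given beside them to show on which side a difference lies and entered no test. SUIT2 is a human pancreatic ductal adenocarcinoma line, and the other lines of the series, PANC1 and COLO357, were treated with the same set of labelled siRNAs. Small interfering RNAs (siRNAs) are short duplexes that direct cleavage of a matching mRNA, and all 6 SUIT2 cultures, control included, had been transfected with an siRNA for 48 h. Total RNA was depleted of ribosomal RNA and read as 100 nt paired ends. Each siRNA gave 1 library per line, and the labels do not say whether these came from separate cultures. The p-values therefore reflect variation among libraries that also differ in their siRNA, which may be partly technical.

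KMT2C and KMT2D encode large histone methyltransferases that place monomethylation on a lysine of histone H3 at enhancers, the distal elements that raise transcription of their target genes. Each enzyme forms a complex with the shared core proteins WDR5, RBBP5, ASH2L and DPY30 and with partners that include NCOA6, PAXIP1 and the histone H3 demethylase KDM6A. Their roles overlap in part, and both genes are recurrently mutated in pancreatic and other epithelial cancers.

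The KMT2C libraries were the shallower ones and held more read pairs outside annotated genes. Gene counts were 15266899, 14205640 and 15910261 with KMT2C siRNA1 to siRNA3, against 25632462 and 22992062 with KMT2D siRNA1 and siRNA2, and 21315077 in the control. Read pairs in no annotated feature averaged 20.8% ± 4.96 of those listed (SD, n = 3) with KMT2C siRNA and 11.9% ± 1.97 (SD, n = 2) with KMT2D siRNA, with 16.5% in the control. The groups did not overlap in either measure (exact two-sided permutation p = 0.2 for each). This p is 2 times the smaller one-sided p, and 0.2 is its smallest value with the 10 splits of 3 against 2 libraries. As the groups were separate in both measures, depth, the share outside genes and the target cannot be told apart. Levels are given in CPM, the count of a gene over all gene counts of its library, scaled to a common total.

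The library with KMT2D siRNA2 stood farthest from all others. Of 12578 genes at a mean of at least 2 CPM, 4.45% to 8.68% lay at least 2-fold apart between pairs of KMT2C libraries, against 15.03% between the KMT2D libraries. Between the targets the share ran from 8.21% to 10.9% for pairs with KMT2D siRNA1 and from 13.0% to 16.2% for pairs with KMT2D siRNA2. The control differed from the KMT2C libraries by 3.38% to 9.04% of genes, from KMT2D siRNA1 by 8.13% and from KMT2D siRNA2 by 13.2%. The 2 KMT2D libraries thus differed from each other at more genes than KMT2D siRNA1 did from any KMT2C library.

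**Figure D1:**
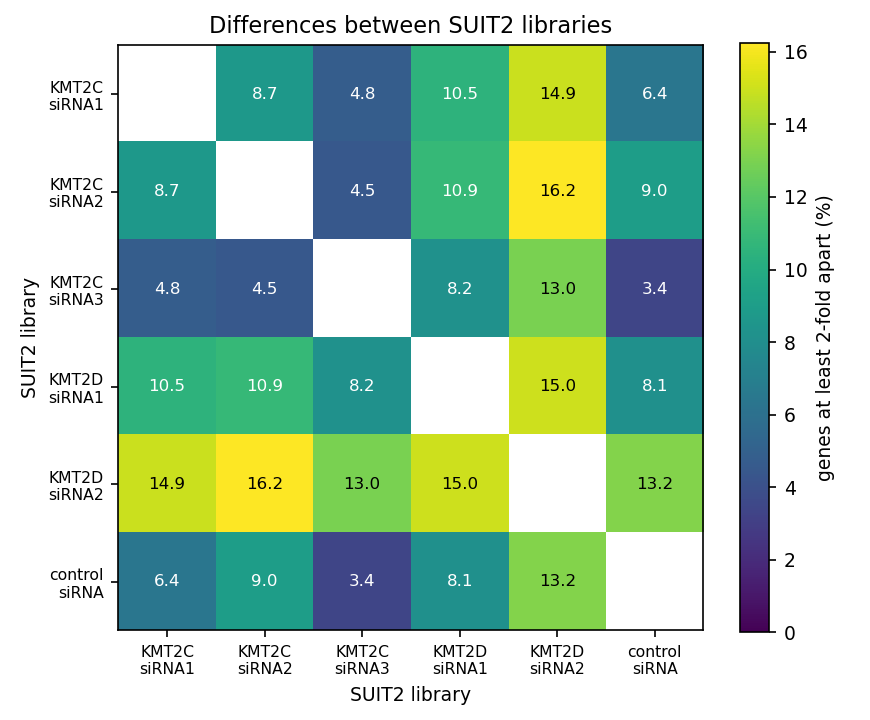
Percentage of 12578 genes at least 2-fold apart between each pair of SUIT2 libraries (colour and number), with libraries along both axes. The row and column of KMT2D siRNA2 hold the highest values, 13.0% to 16.2%, and KMT2C siRNA3 lies closest to the control at 3.38%.

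Epithelial keratin and adhesion genes marked all 6 libraries. KRT8 was at 1269, 1433 and 2046 CPM with KMT2C siRNA, 2662 and 2936 CPM with KMT2D siRNA and 3142 CPM in the control. EPCAM was between 436 and 766 CPM with KMT2C siRNA, at 889 and 647 CPM with KMT2D siRNA and at 602 CPM in the control. Of 7 leukocyte markers 5, of 7 fibroblast markers 6, and all 5 endothelial and all 7 acinar and endocrine pancreas markers stayed under 1 CPM in each of the 6 libraries. The summed leukocyte markers lay between 3.38 and 6.62 CPM with KMT2C siRNA and between 9.09 and 9.32 CPM with KMT2D siRNA, of which LYZ made up most, and PTPRC was at or near 0.

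KMT2C mRNA was lowest with KMT2C siRNA and KMT2D mRNA lowest with KMT2D siRNA, in every library. KMT2C (ENSG00000055609) was at 62.9, 99.5 and 92.1 CPM with KMT2C siRNA1, siRNA2 and siRNA3, against 140 and 212 CPM with KMT2D siRNA1 and siRNA2, and 148 CPM in the control. The KMT2C libraries thus held 42.5%, 67.2% and 62.2% of the control level, and the KMT2D libraries lay on either side of it. KMT2D (ENSG00000167548) was at 67.7, 112 and 100.1 CPM with KMT2C siRNA, against 24.2 and 43.8 CPM with KMT2D siRNA, and 69.5 CPM in the control. That is 34.9% and 63.0% of the control level with the 2 KMT2D siRNAs, and 97.4%, 162% and 144% with the KMT2C siRNAs.

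For neither transcript did the groups overlap, but neither difference passed the test over all genes. The log2 fold change of KMT2C siRNA over KMT2D siRNA was -1.07 (SE 0.298, adjusted p = 0.364) for KMT2C and 1.44 (SE 0.354, adjusted p = 0.351) for KMT2D in edgeR's quasi-likelihood test with Benjamini-Hochberg adjustment. DESeq2 gave the same values with adjusted p = 0.106 for KMT2C and 0.0255 for KMT2D. In bulk RNA, fewer cells with a transcript and less of it per cell cannot be told apart. Parts of KMT2C have near-identical copies elsewhere in the genome, so its count is uncertain to that extent. Whether strand was used in counting is not stated in these sources, so reads of a gene and of one annotated on the opposite strand cannot be told apart. This holds for KMT2C and KMT2D, and of the genes named below for MDC1, FUT4, IGF2, HSD17B2 and SMARCC2. It also holds for the list members SETD1A, KMT2A, PDIA6, DDIT3, SOD2, NQO1, ALDH3A1, CLSPN, FANCD2, XPO5, AGO1, KRT8, KRT18, SCEL, ETV4, TCF7, OAS1 and EPHB4.

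**Figure D2:**
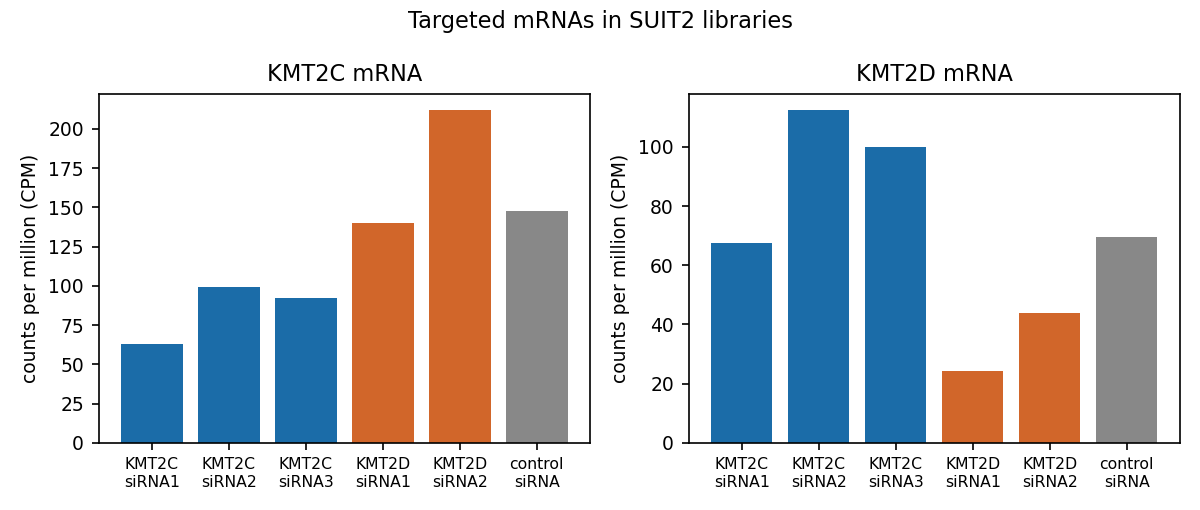
CPM of KMT2C (left) and KMT2D (right) in each SUIT2 library, 1 bar a library with no error bar: KMT2C siRNA1 to siRNA3, KMT2D siRNA1 and siRNA2, and control. KMT2C spans 62.9 to 99.5 CPM with its own siRNAs against 140 and 212 CPM with KMT2D siRNA, and KMT2D is at 24.2 and 43.8 CPM with its own siRNAs.

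No other gene of the complex was called between the targets. Of 8 subunits and partners listed, 6 were tested and 0 were called. None of the 6 reached an unadjusted p under 0.05, DESeq2 called none, and their median log2 fold change was -0.02. The coactivator NCOA6 had the largest difference, with 65.5, 107 and 95.5 CPM with KMT2C siRNA against 38.1 and 81.3 CPM with KMT2D siRNA (log2 fold change 0.56, SE 0.372), and its groups overlapped. RBBP5, a core subunit, was at 22.01, 35.3 and 35.6 CPM against 37.8 and 36.4 CPM (-0.26, SE 0.287). Its groups did not overlap, though 2 KMT2C libraries lay close below the KMT2D values. Without KMT2D siRNA1, and likewise without KMT2D siRNA2, 1 of the 6 was higher at an unadjusted p under 0.05.

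KDM6A, the demethylase of both complexes, was near 0 throughout SUIT2. It had 1, 0 and 0 counts with KMT2C siRNA, 1 and 0 counts with KMT2D siRNA and 1 count in the control. A count of 0 allows up to 3 counts, or 0.211 CPM in the shallowest library (counting error only). PANC1 libraries held 43.9 to 60.8 CPM of KDM6A and COLO357 libraries 66.1 to 87.7 CPM. Both knockdowns in SUIT2 were thus made in cells with almost no KDM6A mRNA, whichever siRNA they carried.

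Among the other methyltransferases of the family, SETD1A was at 25.3, 34.3 and 30.8 CPM with KMT2C siRNA against 14.8 and 22.01 CPM with KMT2D siRNA (log2 fold change 0.70, SE 0.303, adjusted p = 0.488). KMT2A, the founding member, overlapped between the targets, at 345, 402 and 380 CPM against 171 and 355 CPM. Its low value was that of KMT2D siRNA1. The list of H3K4 methyltransferase paralogs, with 6 genes tested, had a median log2 fold change of 0.47. The median was 0.10 without KMT2D siRNA1 and 1.00 without KMT2D siRNA2. At an unadjusted p under 0.05, which 10.1% of all tested genes reached, the acetyltransferase and Polycomb list had 1 of 15 tested genes. This was RNF2, a ubiquitin ligase of Polycomb, at 40.2, 47.0 and 57.5 CPM against 32.0 and 22.3 CPM (0.83, SE 0.287, adjusted p = 0.436). The list had 0 such members without KMT2C siRNA3 and 3 without KMT2D siRNA2.

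Across all genes, ACP3 alone was called when the 5 libraries were tested by themselves. Of 15501 genes, 1 had an adjusted p under 0.05 (0.00645%), while 1572 had an unadjusted p under 0.05 (10.1%), 869 higher (5.61%) and 703 lower (4.54%) with KMT2C siRNA. ACP3 (ENSG00000014257), the acid phosphatase best known from the prostate, was at 0.459, 0.774 and 0.817 CPM with KMT2C siRNA1 to siRNA3. It was at 12.02 and 9.74 CPM with KMT2D siRNA and at 5.54 CPM in the control. ACP3 was thus 15.8-fold lower with KMT2C siRNA (log2 fold change -3.98, SE 0.386, adjusted p = 0.0292). The control lay between the targets, with the KMT2C libraries at 8.28% to 14.8% of it and the KMT2D libraries at 217% and 176%. In edgeR the call of ACP3 ended without any single KMT2C library, with an adjusted p of up to 0.497, and the fits with 1 library left out called up to 156 genes, the highest count being that without KMT2D siRNA1. With 1 KMT2D library left, the spread comes from the KMT2C libraries and the lone library is assumed to vary like them. Without the filter on low counts edgeR called 239 genes on all 5 libraries. DESeq2 on the same 5 libraries called 161 of 14599 genes (1.10%), 111 higher and 50 lower.

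Genes that came closest to the threshold are given next, the 6 of each direction with the smallest p at a mean of at least 2 CPM. Apart from ACP3 none was called by edgeR on 5 libraries, where each had an adjusted p of 0.351. All 12 were called by DESeq2 (adjusted p from 4.34e-14 to 0.00511), which called 161 of 14599 genes (1.10%). The genes were chosen by their p on the same 5 libraries, so these calls are no separate support. Non-overlap of the groups was a condition of this choice and held for 14.0% of all tested genes with KMT2C siRNA above and 13.8% with it below.

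The 6 genes on the higher side encode a signalling kinase subunit, a DNA damage mediator, a growth factor, a fucosyltransferase, a WNT regulator and a secretory pathway protein. PIK3CB (ENSG00000051382), the p110-beta catalytic subunit of phosphoinositide 3-kinase, was at 115, 93.3 and 108 CPM with KMT2C siRNA, against 31.5 and 34.4 CPM with KMT2D siRNA, and 133 CPM in the control. Its level was 3.20-fold higher with KMT2C siRNA (log2 fold change 1.68, SE 0.263), and the KMT2D libraries held 23.7% and 25.8% of the control level. MDC1 (ENSG00000137337), which gathers repair proteins at DNA breaks, was at 69.4, 58.4 and 91.2 CPM against 23.9 and 15.8 CPM, with 63.1 CPM in the control (1.89, SE 0.32). The low samples of both genes were the 2 KMT2D libraries, and the KMT2C libraries of MDC1 lay on either side of the control.

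TMED8 (ENSG00000100580), a member of the family that serves transport between endoplasmic reticulum and Golgi, was at 107, 118 and 101.1 CPM with KMT2C siRNA, against 24.03 and 32.3 CPM with KMT2D siRNA, and 107 CPM in the control (log2 fold change 1.94, SE 0.274). FUT4 (ENSG00000196371), which adds fucose in the synthesis of Lewis x, was at 47.0, 53.6 and 37.8 CPM against 11.9 and 14.8 CPM, with 44.1 CPM in the control (1.77, SE 0.289). AMER1 (ENSG00000184675), an APC-binding regulator of WNT signalling, was at 16.1, 25.4 and 22.2 CPM against 7.06 and 4.26 CPM, with 28.0 CPM in the control (1.91, SE 0.347). In these 3 genes too the KMT2D libraries held the low values and the control lay within or above the KMT2C range. FUT4 overlaps PIWIL4 on the same strand in the annotation, and reads may have been shared.

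IGF2 (ENSG00000167244), the fetal insulin-like growth factor, differed in the other way relative to the control. It was at 190, 314 and 542 CPM with KMT2C siRNA1, siRNA2 and siRNA3, against 76.3 and 64.6 CPM with KMT2D siRNA and 50.7 CPM in the control (log2 fold change 2.31, SE 0.433). The KMT2C libraries were the high ones here and spread widely among themselves. The annotation places INS-IGF2 and other transcripts on the same strand over this gene, so its count is uncertain.

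The 6 genes on the lower side were ACP3, given above, and genes for a disulfide isomerase, a tetraspanin, a steroid dehydrogenase, an alcohol dehydrogenase and a sulfotransferase. AGR2 (ENSG00000106541), a disulfide isomerase of the endoplasmic reticulum needed for mucin production, was at 63.5, 81.9 and 60.5 CPM with KMT2C siRNA, against 166 and 259 CPM with KMT2D siRNA, and 72.4 CPM in the control. Its level was 3.14-fold lower with KMT2C siRNA (log2 fold change -1.65, SE 0.281), and the KMT2D libraries stood at 230% and 357% of the control. TSPAN8 (ENSG00000127324), a tetraspanin of the cell surface, was at 46.2, 50.3 and 30.7 CPM against 117 and 102 CPM, with 38.7 CPM in the control (-1.37, SE 0.266). For both genes the KMT2D libraries were high and the control lay within the KMT2C range.

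HSD17B2 (ENSG00000086696), which oxidises estradiol and testosterone to less active steroids, was at 20.6, 46.2 and 37.6 CPM with KMT2C siRNA, against 137 and 112 CPM with KMT2D siRNA, and 40.2 CPM in the control (log2 fold change -1.84, SE 0.327). ADH1C (ENSG00000248144), an alcohol dehydrogenase, was at 6.03, 15.3 and 15.9 CPM against 61.8 and 47.1 CPM, with 20.3 CPM in the control (-2.13, SE 0.393). CHST4 (ENSG00000140835), a sulfotransferase of mucin-type sugars, was at 4.39, 4.93 and 4.65 CPM against 19.2 and 12.7 CPM, with 19.2 CPM in the control (-1.77, SE 0.301). As for ACP3, the KMT2C libraries of CHST4 were far below the control, at 22.8% to 25.6% of it. ADH1C lies over ADH1B on the same strand in the annotation and can share reads with it.

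**Figure D3:**
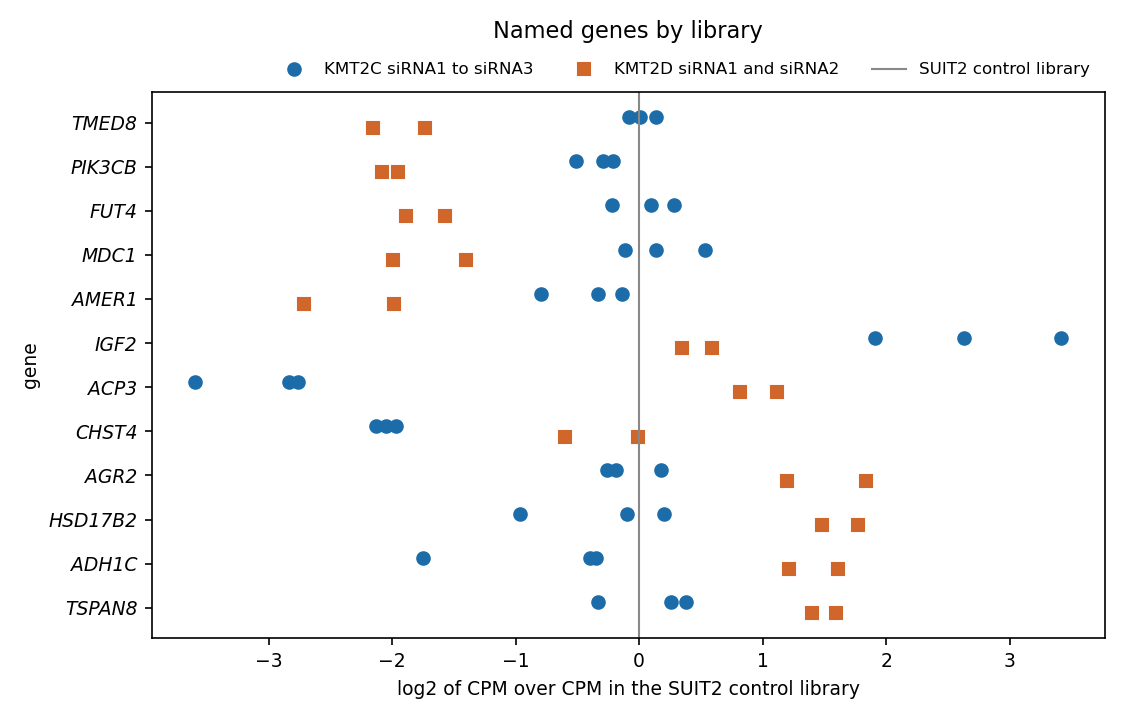
Log2 of the CPM of each named gene over its CPM in the SUIT2 control library, for the 3 KMT2C siRNA libraries (circles) and the 2 KMT2D siRNA libraries (squares). For TMED8, FUT4, MDC1, AGR2, HSD17B2 and TSPAN8 the KMT2C points lie around the control line and the KMT2D points away from it, while IGF2, ACP3 and CHST4 have their KMT2C points away from it.

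The same placing of the control was counted over all genes at a mean of at least 2 CPM with an unadjusted p under 0.05 and groups that did not overlap. Of 709 such genes higher with KMT2C siRNA, the control lay within the KMT2C range in 40.3%, between the targets in 36.2%, within the KMT2D range in 9.87%, above both in 11% and below both in 2.54%. Of 552 lower genes the shares were 26.8% within the KMT2C range, 40.4% between the targets, 16.8% within the KMT2D range, 6.34% above both and 9.60% below both. Over all 12578 genes at this mean, the control lay above all 5 libraries in 13.1% and below all 5 in 12.1%. A range of 3 libraries is wider by construction than a range of 2, so these shares do not tell which knockdown moved the genes.

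The promoters of the named genes are shown because the 2 directions differed in their base composition, a feature that the choice of genes did not use. Sequences are the 250 bases upstream of the RefSeq start (GRCh38.p14, 5′ to 3′ on the gene's strand). Capitals mark CG pairs, the sites of DNA methylation that are dense in the CpG islands of broadly expressed genes. PIK3CB lies on the minus strand at chr3:138834929-138835178 and MDC1 on the minus strand at chr6:30717282-30717531. AGR2 lies on the minus strand at chr7:16805000-16805249 and TSPAN8 on the minus strand at chr12:71158000-71158249.
PIK3CB: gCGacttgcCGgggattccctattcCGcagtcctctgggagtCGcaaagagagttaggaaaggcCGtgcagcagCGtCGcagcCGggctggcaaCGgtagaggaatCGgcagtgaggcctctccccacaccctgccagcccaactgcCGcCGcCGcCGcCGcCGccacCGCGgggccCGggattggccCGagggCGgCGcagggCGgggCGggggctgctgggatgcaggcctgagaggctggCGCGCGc
MDC1: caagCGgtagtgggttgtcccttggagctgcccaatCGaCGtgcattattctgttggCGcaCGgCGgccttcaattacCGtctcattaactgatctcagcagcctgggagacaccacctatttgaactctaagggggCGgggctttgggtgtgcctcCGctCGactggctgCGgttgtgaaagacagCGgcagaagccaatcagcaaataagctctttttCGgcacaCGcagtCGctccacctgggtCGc
AGR2: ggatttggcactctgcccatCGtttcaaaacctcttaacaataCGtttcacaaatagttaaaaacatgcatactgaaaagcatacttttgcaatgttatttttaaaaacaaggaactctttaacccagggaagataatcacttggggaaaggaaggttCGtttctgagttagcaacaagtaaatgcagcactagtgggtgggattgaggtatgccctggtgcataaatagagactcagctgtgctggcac
TSPAN8: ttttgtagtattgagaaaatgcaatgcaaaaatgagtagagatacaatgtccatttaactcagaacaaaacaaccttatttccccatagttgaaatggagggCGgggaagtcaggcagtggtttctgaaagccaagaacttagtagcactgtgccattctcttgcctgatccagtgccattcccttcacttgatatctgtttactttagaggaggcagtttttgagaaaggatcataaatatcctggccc

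PIK3CB held 27 CG pairs and MDC1 16, against 3 in AGR2 and 1 in TSPAN8. Over the 5 higher genes with a promoter in the table the count ran from 11 to 27 and over the 5 lower genes from 1 to 6. IGF2 and HSD17B2 had none there, and for PIK3CB, CHST4 and TSPAN8, with 2 each, the first was used. All 35116 promoters, not limited to genes expressed in SUIT2, had a median of 11, with quartiles of 3 and 23, and 41.1% of them held 6 or fewer. The letters TATAAA, searched on both strands, were in none of these 10 windows and in 10.7% of all promoters. These are descriptions of letters in 10 chosen genes, with no test.

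With the other lines added to estimate the spread, 28 genes were called in SUIT2. This fit held all 18 libraries in 9 groups of cell line by target and tested 21028 genes, of which 14 were called higher and 14 lower with KMT2C siRNA (0.133%). Of the 28, 21 were protein-coding, and 27 were also tested on 5 libraries. The SUIT2 contrast of both fits rests on the same 5 libraries, so the same direction in all 27 was given in advance. PIK3CB (adjusted p = 0.0147), FUT4 (0.0147), IGF2 (0.0147), AMER1 (0.0248), ACP3 (0.0147) and AGR2 (0.0244) were among them, while MDC1 (0.0551), TMED8 (0.0555), ADH1C (0.0533), TSPAN8 (0.0926), HSD17B2 (0.126) and CHST4 (0.154) were not. The count rested on single libraries: it was 5, 1 and 2 without KMT2C siRNA1, siRNA2 or siRNA3, 352 without KMT2D siRNA1 and 0 without KMT2D siRNA2.

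Further genes of this set are named here after their values were seen. Among higher genes, SMARCC2, a subunit of the BAF chromatin remodelling complex, was at 141, 178 and 175 CPM with KMT2C siRNA, against 73.0 and 58.7 CPM with KMT2D siRNA, and 113 CPM in the control (log2 fold change 1.30, SE 0.243, adjusted p = 0.0489). CDC25B, a phosphatase that activates cyclin-dependent kinases before mitosis, was at 59.9, 69.8 and 55.2 CPM against 26.4 and 29.7 CPM, with 53.5 CPM in the control (1.11, SE 0.21, adjusted p = 0.0489). GPD2, the mitochondrial glycerol phosphate dehydrogenase, was at 143, 158 and 124 CPM against 59.2 and 57.7 CPM, with 142 CPM in the control (1.25, SE 0.216, adjusted p = 0.0392). All 3 genes had their low values with KMT2D siRNA. HOXB9, a homeobox transcription factor, was at 7.27, 7.67 and 9.43 CPM against 2.54 and 3.13 CPM, with 6.33 CPM in the control (1.5, SE 0.264, adjusted p = 0.0439). CREB3L3, a membrane-bound transcription factor of the endoplasmic reticulum, was at 1.64, 2.67 and 3.02 CPM against 0.117 and 0.217 CPM, with 3.75 CPM in the control (3.82, SE 0.557, adjusted p = 0.0244).

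Among lower genes, IFNGR1, the ligand-binding chain of the interferon-gamma receptor, was at 25.5, 32.2 and 28.8 CPM with KMT2C siRNA, against 52.6 and 122 CPM with KMT2D siRNA, and 35.7 CPM in the control (log2 fold change -1.63, SE 0.282, adjusted p = 0.0392). TERC, the RNA template of telomerase, was at 18.7, 16.1 and 15.5 CPM against 37.8 and 32.5 CPM, with 30.4 CPM in the control (-1.09, SE 0.187, adjusted p = 0.0392). DDR2, a collagen receptor kinase, was at 0.262, 0.422 and 0.314 CPM against 1.09 and 4.35 CPM, with 0.469 CPM in the control (-3.05, SE 0.569, adjusted p = 0.0489). IFNGR1 and DDR2 were higher in the library with KMT2D siRNA2 than in that with siRNA1, whereas the TERC values of the KMT2D libraries lay close together. CASP1, the protease that matures interleukin 1-beta, was also called (adjusted p = 0.0456). It had 0 counts in all 3 KMT2C libraries, 14 and 6 counts in the KMT2D libraries and 10 in the control. In the KMT2C libraries a count of 0 allows up to 0.189 to 0.211 CPM (counting error only). The processed pseudogene KRT8P10, called lower as well (-1.40, SE 0.219, adjusted p = 0.0244), can share reads with KRT8 and is uncertain.

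Pathways, gene families and cell type markers were read from 31 gene lists. They held 569 distinct genes, of which 487 were tested on 5 libraries and 0 were called. At an unadjusted p under 0.05, 31 were higher (6.37%, against 5.61% of all genes) and 35 lower (7.19%, against 4.54%). DESeq2 called 13 of the list genes, 6 higher and 7 lower. Over all genes it called 161 of 14599 (1.10%), 111 higher and 50 lower. In the lists below, counts of higher and lower members are at an unadjusted p under 0.05, and the median log2 fold change of all tested genes was -0.0041. With counts this small, leaving out 1 library often changed them, and the larger changes are given with the library left out. Where it was a KMT2D library, the other one stands alone and the spread comes from the KMT2C libraries.

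The stress response of the endoplasmic reticulum had the most lower members, though in part through 1 library. Of 23 tested genes that respond to unfolded proteins or lack of amino acids, 7 were lower and 0 higher, and 19 had a negative value (median -0.31). Without the library of KMT2D siRNA2 the counts were 1 lower and 2 higher and the median -0.14. Without KMT2D siRNA1 they were 11 lower and 1 higher, and 4 and 2 members were lower without KMT2C siRNA1 and KMT2C siRNA3. SLC3A2, the heavy chain of amino acid transporters, was at 116, 139 and 140 CPM with KMT2C siRNA, against 253 and 250 CPM with KMT2D siRNA, and 210 CPM in the control (log2 fold change -0.94, SE 0.23, adjusted p = 0.351). Its KMT2D values were alike and both above the KMT2C range. In DDIT3, the stress-induced transcription factor CHOP, the values were 15.1, 29.6 and 15.7 CPM against 18.02 and 97.4 CPM, with 11.9 CPM in the control. HERPUD1, a degradation factor of the same response, was at 53.1, 78.1 and 46.1 CPM against 49.3 and 215 CPM, with 32.8 CPM in the control. Both were high in the library of KMT2D siRNA2 only, and siRNA1 lay within the KMT2C range. PDIA6, a disulfide isomerase of the same compartment, was at 448 to 513 CPM with KMT2C siRNA, against 573 and 88.5 CPM with KMT2D siRNA1 and siRNA2, so that here the library of KMT2D siRNA2 was the low one.

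The count of inflammatory genes also turned on single libraries. Of 15 tested NF-kB targets and cytokines, 4 were lower and 0 higher (median -0.80), and without KMT2D siRNA2 the counts were 1 lower and 2 higher and the median 0.15. Without KMT2D siRNA1, 10 of 17 were lower, and without KMT2C siRNA3, 1 of 16. NFKB2, a subunit of NF-kB, was at 48.2, 62.1 and 41.9 CPM with KMT2C siRNA, against 57 and 146 CPM with KMT2D siRNA, and 69.9 CPM in the control. The chemokine CXCL2 was at 2.49, 2.25 and 1.38 CPM against 2.26 and 11.1 CPM, with 6.43 CPM in the control. In NFKB2 and CXCL2 the high knockdown library was that of KMT2D siRNA2. Of the 15 tested members, the groups did not overlap in 1 with KMT2C siRNA above, SOD2, and in 1 with it below, TNFAIP2. Over all tested genes these shares were 14.0% and 13.8%. TNFAIP2 was at 96.2, 102 and 113 CPM against 201 and 222 CPM, with 279 CPM in the control (log2 fold change -1.03, SE 0.234, adjusted p = 0.351). SOD2, the mitochondrial superoxide dismutase, was at 91.4, 98.6 and 88.4 CPM against 33.2 and 87.8 CPM, with 120.1 CPM in the control (0.59, SE 0.391).

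Genes of the oxidative stress factor NRF2 had 5 lower and 1 higher of 20 tested (median -0.47), with 3 lower without KMT2C siRNA1 and 1 lower without KMT2C siRNA3. NQO1, a quinone reductase, was at 385, 313 and 312 CPM with KMT2C siRNA, against 676 and 408 CPM with KMT2D siRNA, and 480 CPM in the control (-0.68, SE 0.264). ALDH3A1 was the 1 lower of 12 tested aldehyde dehydrogenases, at 5.44, 3.10 and 6.35 CPM against 20.01 and 9.70 CPM (-1.56, SE 0.412). In that list 2 were lower without KMT2C siRNA2 or without either KMT2D library, and 1 was higher without KMT2C siRNA1 or without KMT2D siRNA2. Of the NRF2 genes, 2 were higher without KMT2D siRNA1 and 0 without KMT2C siRNA1.

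Of 25 tested genes of G2/M and mitosis, 2 were higher and 0 lower, and 19 had a positive value (median 0.19). Without any single KMT2C library 1 was higher, without KMT2D siRNA1 3 were, and without KMT2D siRNA2 4 were. TOP2A, the topoisomerase that untangles chromosomes, was at 1006, 826 and 918 CPM with KMT2C siRNA, against 311 and 399 CPM with KMT2D siRNA, and 770 CPM in the control (log2 fold change 1.36, SE 0.26, adjusted p = 0.351). The KMT2D libraries were low and the KMT2C libraries all above the control. Of 25 genes of DNA replication and S phase entry, 3 were higher and 0 lower (median 0.08), which became 0 without KMT2D siRNA1, 6 without KMT2D siRNA2, 2 without KMT2C siRNA1 and 1 without KMT2C siRNA3. POLA1, a subunit of DNA polymerase alpha, was at 73.8, 96.2 and 91.4 CPM against 23.6 and 54.7 CPM, with 79.3 CPM in the control (1.13, SE 0.377). The replication checkpoint adaptor CLSPN was at 166, 159 and 203 CPM against 68.0 and 114 CPM, with 168 CPM in the control (0.94, SE 0.31). Both had their lowest value with KMT2D siRNA1.

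In the DNA damage checkpoint list, 2 of 22 tested genes were higher and 1 lower, and 18 had a positive value (median 0.30). The higher members were 5 without KMT2D siRNA1 and 1 without KMT2C siRNA1, KMT2C siRNA2 or KMT2D siRNA2, and the median was 0.11 without KMT2D siRNA2. MDC1, given above, was joined by FANCD2 of the Fanconi pathway, at 52.7, 47.7 and 39.2 CPM with KMT2C siRNA against 34.7 and 21.3 CPM with KMT2D siRNA. HUS1, part of the clamp that senses damaged DNA, went the other way, at 14.4, 16.3 and 16.0 CPM against 32.3 and 35.1 CPM, with 20.9 CPM in the control (log2 fold change -1.12, SE 0.255, adjusted p = 0.351). No gene of 20 tested CDK inhibitors and p53 targets was at an unadjusted p under 0.05 on 5 libraries. Without KMT2D siRNA1 4 were higher, and without KMT2C siRNA2 or KMT2D siRNA2 1 was lower.

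The machinery of RNA interference, which the siRNAs themselves use, had 3 higher and 0 lower of 13 tested, with 12 positive values (median 0.43). XPO5, the exporter of microRNA precursors, was at 115, 113 and 107 CPM with KMT2C siRNA, against 71.0 and 53.3 CPM with KMT2D siRNA, and 136 CPM in the control (log2 fold change 0.85, SE 0.244, adjusted p = 0.37). AGO1, which binds the guide strand, was at 88.4, 136 and 115 CPM against 81.6 and 55.9 CPM, with 84.9 CPM in the control (0.72, SE 0.279). With any library left out, 11 or 12 of the 13 values remained positive, while the higher members were 1 without KMT2C siRNA3, 2 without KMT2C siRNA1, KMT2C siRNA2 or KMT2D siRNA2, and 4 without KMT2D siRNA1. Without KMT2D siRNA2 1 was lower.

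Of the 7 ductal cancer line markers, 0 were called, and at an unadjusted p under 0.05 the simple epithelial keratins KRT8, KRT18 and KRT19 were lower and 0 higher (median -0.66). Their adjusted p were 0.429, 0.461 and 0.488, and they were also the 3 lower of 25 epithelial junction and keratin genes. KRT19 was at 489, 835 and 1229 CPM with KMT2C siRNA, against 1398 and 1638 CPM with KMT2D siRNA, and 1669 CPM in the control (log2 fold change -0.84, SE 0.358). KRT18 was at 431, 430 and 680 CPM against 843 and 853 CPM, with 1027 CPM in the control (-0.72, SE 0.279). In all 3 keratins the KMT2D libraries lay close to each other and below the control. Without KMT2C siRNA1, or without KMT2D siRNA2, 0 of the 7 markers were lower at this threshold and 1 was higher. Without KMT2C siRNA2 1 was lower, without KMT2D siRNA1 2 were, and without KMT2C siRNA3 4 were. Of the 25 junction and keratin genes, 0 were lower without KMT2C siRNA1 or without KMT2D siRNA2, and 4 and 3 were higher without KMT2D siRNA1 and KMT2D siRNA2.

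Genes of the 2 pancreatic tumour subtypes, classical and basal-like, both had lower members. AGR2 and TSPAN8 were the 2 lower of 15 tested classical genes, and 0 were higher (median -0.56, or -0.0010 without KMT2D siRNA1, with 5 lower members without KMT2C siRNA2, 4 without KMT2D siRNA1 and 2 or 3 without any other). Of 12 tested basal-like and cornified envelope genes, 3 were lower and 1 higher (median -0.31), with 2 higher without KMT2C siRNA3. The lower members were 2 without KMT2C siRNA1, KMT2C siRNA2 or KMT2D siRNA2. SCEL, a cornified envelope protein, was at 0.852, 8.31 and 8.11 CPM with KMT2C siRNA, against 31.4 and 47.2 CPM with KMT2D siRNA, and 8.35 CPM in the control (log2 fold change -2.79, SE 0.675). The higher member was the keratin KRT80, at 78.0, 71.9 and 63.2 CPM against 36.0 and 32.9 CPM, with 127 CPM in the control (1.04, SE 0.246).

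Single members stood out in the signalling and matrix lists. ITGB6, an epithelial integrin that activates TGF-beta, was at 49.5, 102 and 82.3 CPM with KMT2C siRNA, against 31.6 and 30.0 CPM with KMT2D siRNA, and 97.0 CPM in the control (log2 fold change 1.33, SE 0.325). Its list of matrix and integrin genes had 2 higher and 1 lower of 23, with 1 higher and 3 lower without KMT2C siRNA1 and 1 higher and 5 lower without KMT2D siRNA1. ETV4, a transcription factor downstream of MAPK, was at 18.8, 18.8 and 24.5 CPM against 11.2 and 8.35 CPM, with 29.2 CPM in the control (1.09, SE 0.303), in a list with 3 higher and 0 lower of 23. There 5 were higher without KMT2C siRNA2, 2 were higher and 1 lower without KMT2D siRNA1, and 1 was lower without KMT2C siRNA1. TCF7, a WNT transcription factor, was at 15.3, 15.3 and 17.1 CPM against 3.51 and 8.87 CPM, with 18.3 CPM in the control (1.34, SE 0.421), in a list with 2 higher and 1 lower of 15. That list had 1 higher without KMT2C siRNA2, 2 lower without KMT2D siRNA1 and 0 lower without KMT2D siRNA2. In ITGB6, ETV4 and TCF7 the KMT2D libraries were the low ones. FASN, the fatty acid synthase, was at 396, 255 and 393 CPM against 201 and 156 CPM, with 537 CPM in the control (0.97, SE 0.29), in a list of cholesterol and fatty acid synthesis with 1 higher and 1 lower of 26 (median -0.20). The direction of that list turned on single libraries, with 8 higher and 0 lower without KMT2D siRNA1 (median 0.56) and 1 higher and 11 lower without KMT2D siRNA2 (median -0.71). It had 2 higher and 0 lower without KMT2C siRNA2, and 2 lower without KMT2C siRNA1.

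In the remaining lists the directions were mixed or few members stood out. The interferon response had 3 higher and 2 lower of 29, with 5 higher without KMT2D siRNA1 and 1 higher without KMT2C siRNA2 or KMT2D siRNA2, and 1 lower without KMT2C siRNA1, KMT2C siRNA3 or KMT2D siRNA2. OAS3 was at 96.8, 149 and 92.9 CPM with KMT2C siRNA against 24.97 and 62.3 CPM with KMT2D siRNA, while its relative OAS1 was at 24.8, 38.4 and 27.3 CPM against 61.4 and 51.7 CPM. Receptor tyrosine kinase and PI3K genes had 2 higher, PIK3CB among them, and 1 lower, EPHB4, of 22, with 5 higher and 2 lower without KMT2D siRNA1 and 4 higher and 2 lower without KMT2D siRNA2. Glycolysis and hypoxia genes had 2 higher of 22, but 0 without KMT2C siRNA1, 4 without KMT2D siRNA2, and 2 lower beside 2 higher without KMT2D siRNA1. YAP and TGF-beta targets had 2 lower of 24, which became 5 lower without KMT2D siRNA1 and 4 higher and 0 lower without KMT2D siRNA2, and 1 lower without KMT2C siRNA1 or KMT2C siRNA2. Mesenchymal genes had 1 higher and 1 lower of 15, with 4 higher without KMT2D siRNA2, 2 higher without KMT2C siRNA3 and 0 lower without any single KMT2C library. Notch pathway genes (19 tested) and ribosome biogenesis genes (21 tested) had 0 in either direction on 5 libraries, and the ribosome list had 3 lower without KMT2D siRNA1, 2 lower without KMT2C siRNA3, and 2 higher and 1 lower without KMT2D siRNA2.

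**Figure D4:**
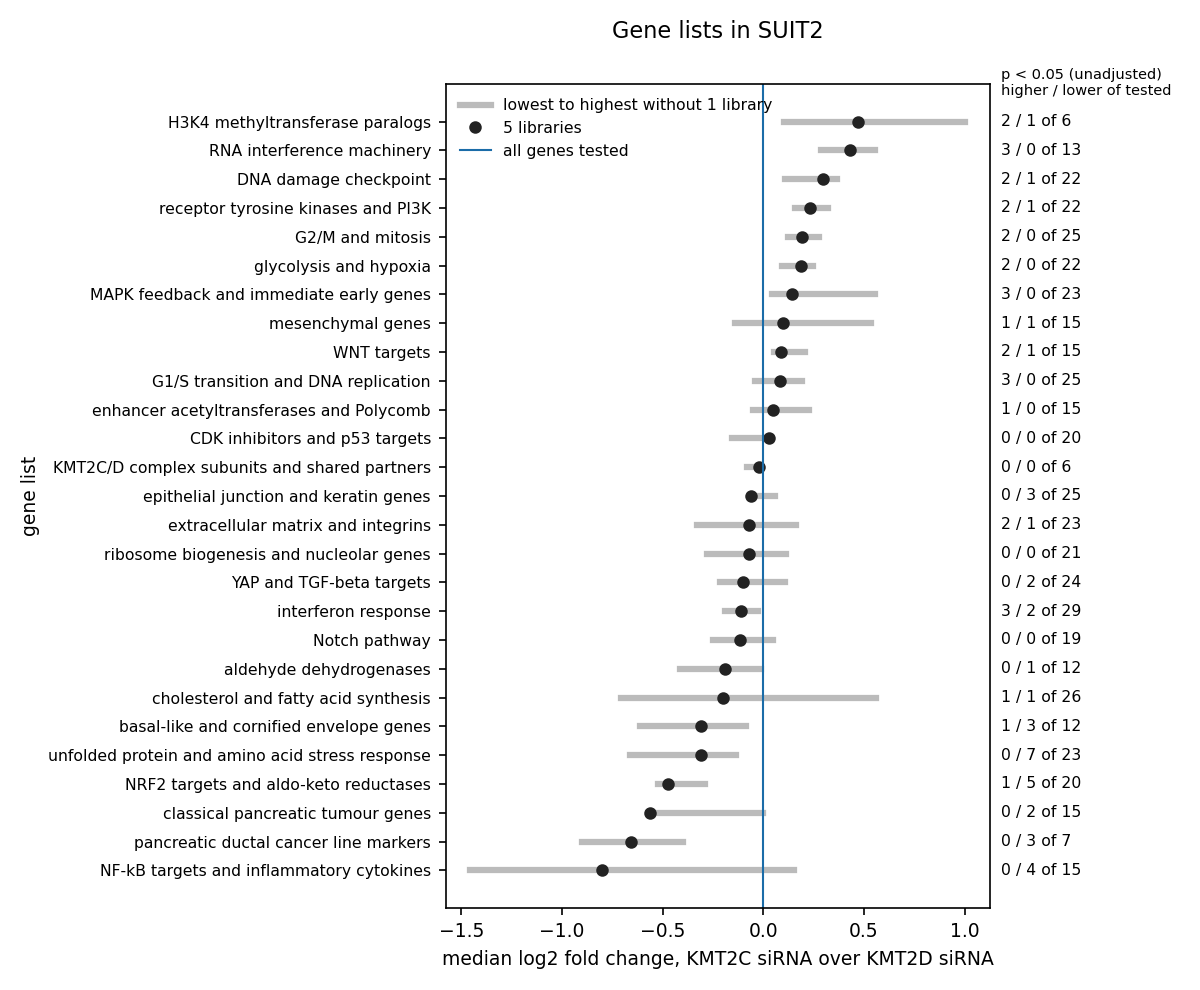
Median log2 fold change of KMT2C siRNA over KMT2D siRNA for each list with at least 5 tested genes (points), with the lowest and highest median when 1 of the 5 libraries was left out (grey bars), and counts at an unadjusted p under 0.05 on the right. The NF-kB list spans the widest range. The median of the RNA interference list stays above 0 throughout, and so do those of several other lists. These are the H3K4 methyltransferase, G2/M, DNA damage, receptor tyrosine kinase, glycolysis, MAPK and WNT lists.

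The same siRNAs in the other lines gave mostly the same directions for the 12 genes named from SUIT2. In PANC1, 7 of the 12 had a mean of at least 1 CPM over the 5 knockdown libraries. All 7 had the SUIT2 direction and an unadjusted p under 0.05, but 0 were called in the 18-library fit. That fit called 0 of 21028 genes in PANC1 (0.0%), and 7.68% had an unadjusted p under 0.05. In COLO357, 9 of the 12 reached that level. Of these 8 had the SUIT2 direction and an unadjusted p under 0.05, and 0 were called. Of all genes in COLO357, 0.00476% were called and 6.30% had an unadjusted p under 0.05. ACP3 was just under a mean of 1 CPM, at 0.229, 0.336 and 0.758 CPM with KMT2C siRNA against 0.830 and 2.84 CPM with KMT2D siRNA. HSD17B2 was the exception among the 9, at 5.04, 1.22 and 3.22 CPM with KMT2C siRNA against 1.70 and 3.80 CPM with KMT2D siRNA. IGF2 in PANC1 and ADH1C in COLO357 are low there and reached a mean of 1 CPM only through their higher group. In PANC1 IGF2 was at 2.46, 1.84 and 2.33 CPM with KMT2C siRNA against 0.853 and 1.01 CPM with KMT2D siRNA. In COLO357 ADH1C was at 0.343, 1.05 and 0.948 CPM against 3.45 and 3.55 CPM. Both are in the counts above. Since the lines share their siRNAs, they repeat the cell background and not the siRNA.

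PIK3CB was the closest to a call, with a log2 fold change of 1.54 (SE 0.227, adjusted p = 0.0502) in PANC1 and 1.22 (SE 0.226, adjusted p = 0.36) in COLO357. It was at 121, 118 and 115 CPM with KMT2C siRNA in PANC1, against 32.6 and 47.5 CPM with KMT2D siRNA, and 92.4 CPM in the control. In COLO357 the values were 35.4, 44.7 and 47.9 CPM against 19.1 and 16.0 CPM, with 57.6 CPM in the control. AGR2 was at 47.4, 52.2 and 39.4 CPM in COLO357 with KMT2C siRNA, against 122 and 108 CPM with KMT2D siRNA, and 109 CPM in the control. The COLO357 control thus lay within the KMT2D range for AGR2, whereas the SUIT2 control lay within the KMT2C range.

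No gene was called for a difference between SUIT2 and the mean of the other lines. Of 21028 genes 0 passed the test of that difference in edgeR's 18-library fit (0.0%), with 831 at an unadjusted p under 0.05 (3.95%). AMER1 came nearest among the named genes that are expressed in all 3 lines, with a contrast larger by 1.10 in SUIT2 (SE 0.353, unadjusted p = 0.00649), followed by FUT4 (0.76, SE 0.282, unadjusted p = 0.0159), neither of which passed the adjustment. For PIK3CB the difference was 0.28 (SE 0.265, unadjusted p = 0.298).

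**Figure D5:**
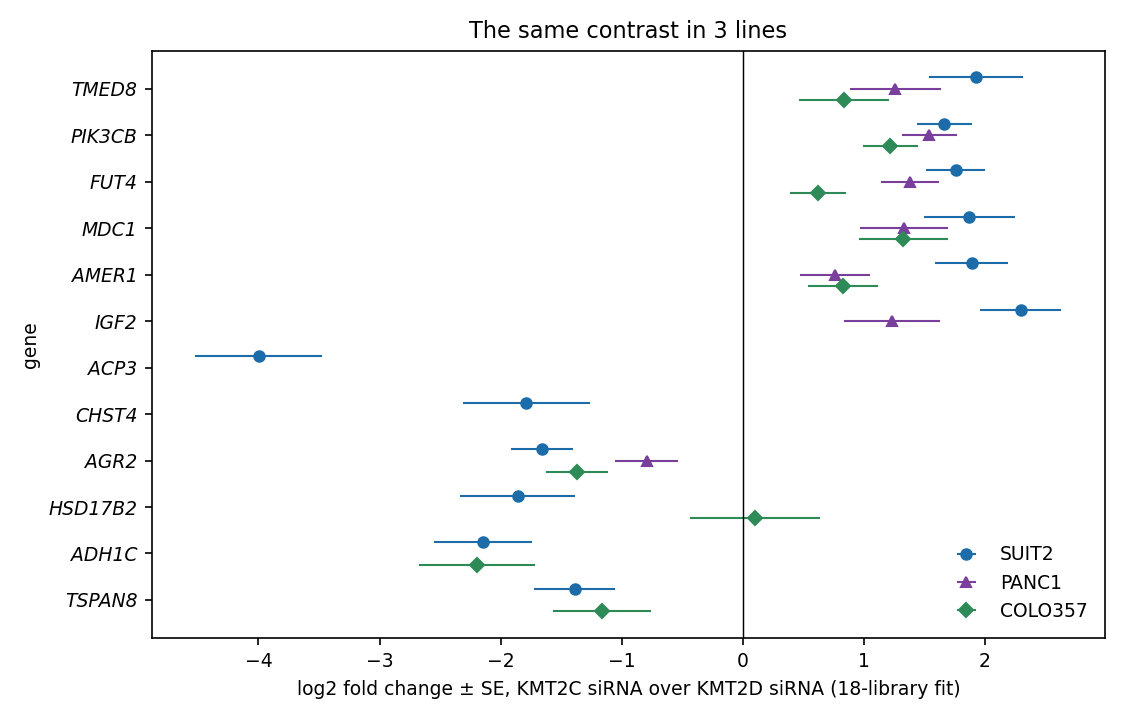
Log2 fold change of KMT2C siRNA over KMT2D siRNA with its SE in SUIT2 (circles), PANC1 (triangles) and COLO357 (diamonds), from the fit over 18 libraries, for the genes with a mean of at least 1 CPM over the knockdown libraries of a line. Every point has the SUIT2 sign except HSD17B2 in COLO357, at 0.10.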

How the data were processed

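Gene expression was measured by RNA sequencing of ribosome-depleted total RNA. The authors deposited, for each library, unnormalized counts by Ensembl gene, made with TopHat2 and HTSeq on hg19 after FastQC, per the submitters' processing notes. Neither the annotation release nor the overlap mode and strand setting of counting is given in the sources used here. Of 63677 identifiers, 82.5% were matched to a symbol in GENCODE v29, and the 5 entries that name no gene (36.5% to 47.3% of read pairs in SUIT2) were left out of totals and tests.

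The main fit was edgeR 4.0.16 (R 4.3.3), quasi-likelihood with TMM factors, the filter by expression (minimum count 10, minimum total 15) and Benjamini-Hochberg adjustment over all genes tested, on 5 libraries with target as the term (3 residual degrees of freedom). CPM used gene counts as the total, without TMM factors. Each SE was obtained by dividing the absolute log2 fold change by the root of the F statistic. A second fit held 18 libraries in 9 groups. DESeq2 1.42.0, limma-voom (limma 3.58.1) and the alternatives of the closing section were also run. The fits were tried on simulated counts with known changes and the same dispersion for every gene. That trial checked the code and does not measure how reliable the calls in these libraries are. Pairs of libraries of a target exceeded sampling noise (chi-square 46.2 to 143 a gene), so none was counted as a copy.

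Genes were named by the 6 smallest p of each direction among protein-coding genes with a mean of at least 2 CPM and groups that do not overlap, beside the targeted genes. The comparison, the lists and this rule were chosen with earlier results of these data known. Values of some list members are not reported here.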

Additional observations from a re-analysis of the deposited data

How the results depend on the processing

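The count of genes called between the targets (1) depended on the test and on single libraries. It was 239 with no filter on low counts, 161 by DESeq2, 28 in the fit over 18 libraries, 0 by limma-voom, 0 without both KMT2C siRNA2 and siRNA3, and 0 to 156 with 1 library left out (without a KMT2D library, the other is assumed to vary like the KMT2C libraries). RLE factors left it at 1, as did thinning to the smallest library, which was chosen after seeing the data. The siRNA number as a replicate block gave 0 calls. Same-numbered libraries did not deviate together (r of 0.00088 and -0.019 over 12578 genes). With 2 KMT2D libraries the deviation of 1 mirrors that of the other, so these values cannot decide whether the numbers pair the libraries. For the difference between lines (0), 18 genes were called with no filter, 0 with the siRNA as a replicate block and 0 to 2 with 1 library left out. KMT2C and KMT2D passed the threshold with no filter (-1.12, adjusted p = 0.0189, and 1.39, adjusted p = 0.0038), and KMT2D by DESeq2 (1.44, adjusted p = 0.0255). With 1 library left out they ran from -1.37 to -0.68 and from 1.04 to 1.99. Of list members, 2 were called in the fit over 18 libraries. Over 156 alternatives for the 12 named genes, 119 kept their side of the threshold, 31 passed it newly and 6 lost it, all 6 of ACP3. None changed sign, but these genes were chosen for groups that do not overlap in the same libraries, which largely fixed the sign in advance. The share outside annotated genes differed by 11.6 points with the other denominator, against 8.98. Depth limits genes near 1 CPM in the KMT2C libraries.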

Other observations

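An identifier without a matched name, ENSG00000226958, was at 3139, 13154 and 6893 CPM with KMT2C siRNA1, siRNA2 and siRNA3, against 1187 and 985 CPM with KMT2D siRNA, and 5022 CPM in the control. Its KMT2C libraries ranked in the same order as their share of read pairs in no annotated feature, 15.3%, 24.99% and 22.2%. The KMT2D libraries, with shares of 10.5% and 13.3%, ranked in the opposite order. A part of this identifier in the CPM of other genes was not tested.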
